A study of Mus musculus with 6 samples.

Results

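The genes described here are 9 genes of cytosolic nucleic acid sensing, taken by name from the gene count table: Ddx58 (also written Rigi), Ifih1, Dhx58, Mavs, Ifi204, Ifi205, Zbp1, Ikbke and Tbk1. Each was found as 1 of the 41972 entries. Not all of the 9 are sensors, since Mavs is an adaptor and Ikbke and Tbk1 are kinases. A filter on low counts kept 8 of the 9 for testing, among 12740 genes in all, and left out Zbp1.

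The libraries were made from poly(A)-selected RNA of wild-type mouse bone-marrow-derived macrophages, cultured for 6 days. The marrow donors were males of the C57BL/6 strain aged 6 weeks, and cells were grown with 20% serum and with 30% medium conditioned by L-929 cells. Macrophages received vesicles shed by the mould Aspergillus flavus (extracellular vesicles, EVs) labelled LD-F1, EVs labelled LD-F1_b, or PBS, for 6 h, with EVs at 20 µg per well. Each of the 3 groups holds 2 libraries, called biological replicates by the labels, and the labels do not say whether these came from separate mice, so p-values measure the spread between these libraries, which may be technical. The labels call LD-F1 and LD-F1_b strains and do not say how they differ.

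RIG-I (Ddx58) and MDA5 (Ifih1) are helicases that bind viral or misplaced double-stranded RNA in the cytosol and signal through the mitochondrial adaptor MAVS. LGP2 (Dhx58) is a relative that lacks the signalling domain and tunes the other two. The proteins of the AIM2-like family, which includes Ifi204 and Ifi205, carry a pyrin domain or DNA-binding HIN domains, and ZBP1 binds left-handed double helices. These routes meet at the kinases TBK1 and IKKε (Ikbke), which phosphorylate interferon regulatory factors so that type I interferon is made, and interferon in turn induces many of the sensors in macrophages.

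Promoter windows in the RefSeq table of build GRCm38.p6 (250 bases before to 50 after each start, 300 in all) were matched for 6 of the 9 genes, that is all but Dhx58, Ifi204 and Zbp1. The windows were searched on both strands for the core of the interferon-stimulated response element, which is GAAA, any 2 bases and GAAA again, the binding motif of interferon regulatory factors and of the complex made by interferon signalling. The windows that hold it and that of Mavs, 1 of those that do not, are shown with each match in capitals. They lie at chr4:40239776-40240075 (Ddx58, minus strand), chr2:62646206-62646505 (Ifih1, minus strand), chr1:174031706-174032005 (Ifi205, minus strand) and chr2:131233813-131234112 (Mavs, plus strand) and are written 5′ to 3′ along the gene.
Ddx58: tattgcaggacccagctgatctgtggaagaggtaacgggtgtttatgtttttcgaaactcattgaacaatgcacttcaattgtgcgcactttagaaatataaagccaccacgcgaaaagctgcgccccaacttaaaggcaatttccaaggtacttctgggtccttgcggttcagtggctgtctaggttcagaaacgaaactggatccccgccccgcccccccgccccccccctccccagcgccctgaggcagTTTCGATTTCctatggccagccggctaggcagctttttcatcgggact
Ifih1: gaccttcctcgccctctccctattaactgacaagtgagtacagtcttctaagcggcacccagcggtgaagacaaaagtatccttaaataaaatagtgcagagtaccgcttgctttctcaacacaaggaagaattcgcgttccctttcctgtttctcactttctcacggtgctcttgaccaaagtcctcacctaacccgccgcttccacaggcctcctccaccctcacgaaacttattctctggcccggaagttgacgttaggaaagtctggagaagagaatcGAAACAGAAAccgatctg
Ifi205: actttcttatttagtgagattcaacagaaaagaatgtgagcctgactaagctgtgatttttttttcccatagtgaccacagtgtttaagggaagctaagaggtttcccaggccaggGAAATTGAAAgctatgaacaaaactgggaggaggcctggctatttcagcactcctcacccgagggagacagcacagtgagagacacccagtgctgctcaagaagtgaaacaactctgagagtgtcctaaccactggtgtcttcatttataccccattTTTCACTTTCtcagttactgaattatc
Mavs: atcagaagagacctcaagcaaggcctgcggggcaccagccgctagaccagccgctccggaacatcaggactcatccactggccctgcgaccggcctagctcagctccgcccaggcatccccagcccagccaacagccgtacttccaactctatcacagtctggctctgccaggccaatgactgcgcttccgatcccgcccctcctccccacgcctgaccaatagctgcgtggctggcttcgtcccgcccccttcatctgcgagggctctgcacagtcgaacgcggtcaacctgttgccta
Ddx58 and Ifih1 had 1 match each and Ifi205 had 2, while the windows of Mavs, Tbk1 and Ikbke had 0. The matches began 3 bases into the transcript in Ddx58, 33 bases into it in Ifih1, and at -134 and 24 in Ifi205, counted from the start. Among all 32851 windows of the table, 3.44% held this motif. A second motif, the interferon-gamma-activated sequence TTCNNNGAA (8.30% of windows), and the NF-kB motif (8.46% of windows) were in 0 of the 6 windows. A match is a description of these bases and shows no binding. Ikbke, without a match, rose with both kinds of EV (log2 fold changes of 1.15 and 0.98 over PBS). Any link between the motif and the changes was not tested.

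Libraries held 13722215 to 15277997 counts. CPM are counts relative to library size, scaled by TMM factors of 0.965 to 1.04, and a floor of 3 counts in a library equals 0.189 to 0.225 CPM. Without molecular identifiers, such floors account for counting error alone. Replicates differed by more than counting error (chi-square per degree of freedom 17.8 between LD-F1 replicates, 5.56 between LD-F1_b replicates and 3.18 between PBS replicates). The LD-F1 libraries also differed by gene length: longer genes were relatively higher in replicate 1 (Spearman's rho across tested genes 0.33, with 0.096 in the LD-F1_b pair and 0.0092 in the PBS pair; this is across genes, which are no replicates). Of 8 macrophage markers, 7 were in the table, at a summed 2230 to 2447 CPM with LD-F1 EVs, 2531 to 2586 CPM with LD-F1_b EVs and 2594 to 2608 CPM with PBS, although Itgam, which encodes CD11b of macrophages, had 7 counts over all libraries. Defining markers of T cells (Cd3e), neutrophils (Ly6g) and plasmacytoid dendritic cells (Siglech) had 0 counts. Of the other T cell markers, Cd3d had 0 counts, and Cd3g had 4, all in LD-F1_b replicate 1 (0.278 CPM, above the floor). Plasmacytoid markers, 4 of 4 in the table, summed to 143 to 168 CPM with LD-F1 EVs, 123 to 128 CPM with LD-F1_b EVs and 111 to 114 CPM with PBS. Their main genes lay on opposite sides of PBS, since Bst2 had 102 and 126 CPM with LD-F1 EVs against 61.4 and 64.4 CPM with PBS, and Tcf4 had 40.8 and 42.5 CPM with LD-F1 EVs against 49.8 and 49.4 CPM with PBS. Dendritic cell markers, 4 of 4 in the table, summed to 8.89 to 8.92 CPM with LD-F1 EVs, 6.15 to 6.81 CPM with LD-F1_b EVs and 2.90 to 3.20 CPM with PBS. Most of that sum was Xcr1, at 7.72 and 8.39 CPM with LD-F1 EVs and 4.80 and 4.08 CPM with LD-F1_b EVs, against 1.31 and 1.13 CPM with PBS, while Zbtb46 had 0.67 and 0.36 CPM with LD-F1 EVs against 1.24 and 0.69 CPM with PBS. Neutrophil markers, 6 of 6 in the table, summed to 1.21 to 1.499 CPM with LD-F1 EVs, 0.691 to 0.834 CPM with LD-F1_b EVs and 0.457 to 0.504 CPM with PBS. The part of these markers in the results was not tested. In bulk RNA, a change in the number of cells of a type and a change in RNA per cell cannot be told apart.

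Transcripts of the sensors Ddx58, Ifih1, Dhx58, Ifi204 and Ifi205 and of the kinase Ikbke rose with both kinds of EV. The rise was larger with LD-F1 than with LD-F1_b EVs for these sensors other than Ifih1, whose difference was not called. These calls between the EV groups were lost without either LD-F1_b library, though the log2 differences of the sensors stayed between -1.57 and -0.56. The calls of Ddx58, Ifih1 and Dhx58 with LD-F1_b EVs over PBS also depended on single libraries. The adaptor Mavs fell slightly with LD-F1 EVs, a call at the threshold that several alternative runs lost, and the kinase Tbk1 was not called. With LD-F1 EVs, 6 of the 8 tested genes rose over PBS and 1 fell, by edgeR's quasi-likelihood F test (threshold 0.05 on p-values adjusted by Benjamini and Hochberg across the 12740 genes). In that comparison 21.2% of all genes were called, 11.4% higher and 9.87% lower. With LD-F1_b EVs the same 6 genes rose and 0 fell, against 11% of all genes called, 6.44% higher and 4.54% lower. The median log2 fold change of the 8 was 1.49 with LD-F1 EVs and 0.80 with LD-F1_b EVs, against 0.01 over all genes in each, and both comparisons use the same PBS libraries. The genes were chosen with earlier results of these data known, so their contrast with all genes is only a description. Directly compared, LD-F1_b EVs gave lower values than LD-F1 EVs for 4 of the 8, and higher ones for 0, where 0.424% of all genes were called, 0.408% lower and 0.0157% higher. For all 8 genes the EV libraries lay outside the range of the PBS libraries, and this held for 59.5% of all genes with LD-F1 EVs and 60.4% with LD-F1_b EVs; between the EV groups the 8 did not overlap either, as did not 34% of all genes.

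**Figure D1:**
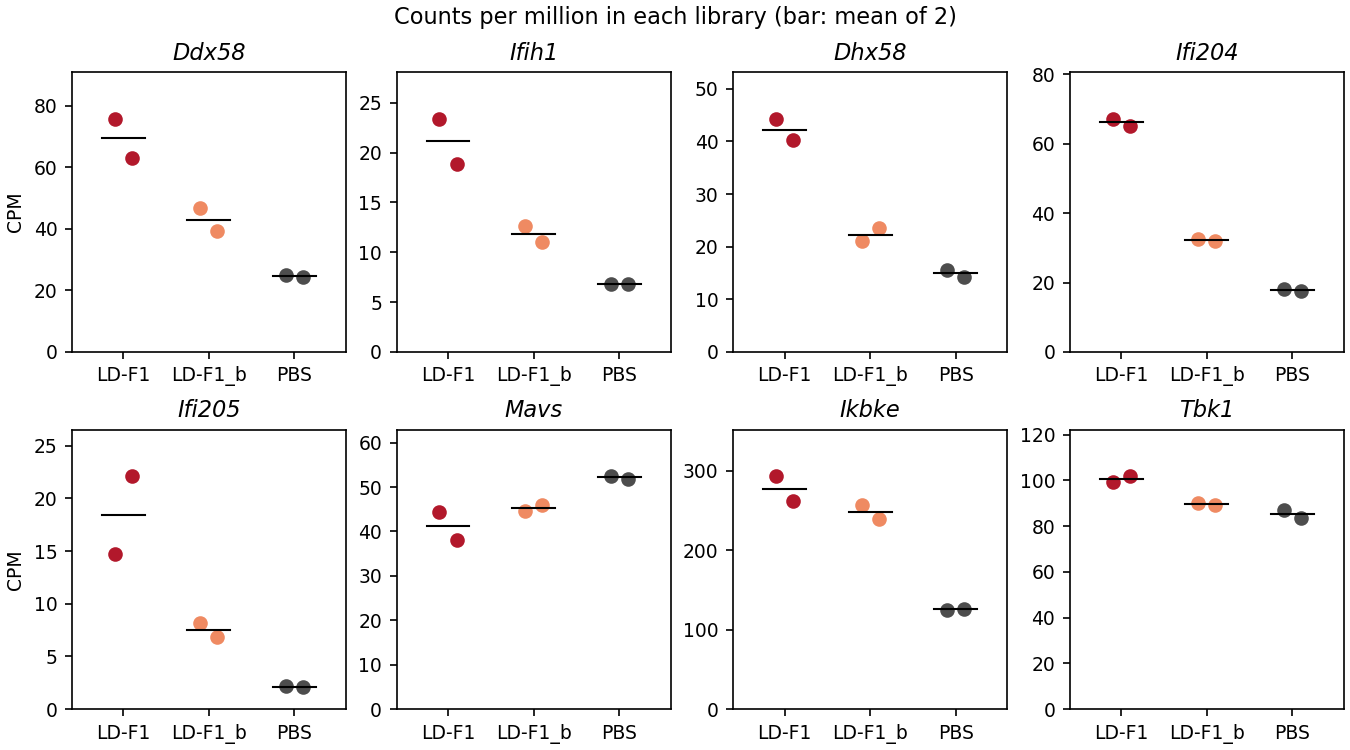
Expression of the 8 tested genes in CPM (vertical axes, from 0) in each of the 6 libraries, with the mean of each group as a bar. The sensors Ddx58, Ifih1, Dhx58, Ifi204 and Ifi205 step down from LD-F1 over LD-F1_b to PBS, Ikbke is high in both EV groups, and Mavs is highest in PBS.

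Ddx58, whose protein RIG-I recognises short double-stranded RNA with a 5′ triphosphate, had 75.8 and 63.0 CPM with LD-F1 EVs and 46.8 and 39.2 CPM with LD-F1_b EVs, against 25.1 and 24.4 CPM with PBS. The groups did not overlap, and the replicates were closest in PBS. Ddx58 was 2.80-fold higher with LD-F1 EVs than with PBS (1.49 ± 0.13 as log2 fold change ± SE, 2 libraries in each group, adjusted p = 8.03e-06) and 1.74-fold higher with LD-F1_b EVs (0.80 ± 0.13, adjusted p = 0.0021). It was lower with LD-F1_b than with LD-F1 EVs (-0.69 ± 0.13, adjusted p = 0.0356), a call lost without any 1 LD-F1_b or PBS library (adjusted p = 0.0585 to 0.649), with library totals alone (0.0538) and in a fit of only the groups compared (0.0833). The entry lies on chromosome 4 from 39493978 to 39534578 on the minus strand, in the positions of the table.

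Ifih1, which encodes MDA5, the sensor of long double-stranded RNA, had fewer reads; its entry lies on chromosome 2 from 64110273 to 64164912, minus strand. It had 23.4 and 18.8 CPM with LD-F1 EVs and 12.6 and 11.1 CPM with LD-F1_b EVs, against 6.79 and 6.80 CPM with PBS. All libraries kept the order LD-F1, LD-F1_b, PBS. The rise was 3.10-fold with LD-F1 EVs (1.63 ± 0.18, adjusted p = 4.35e-05) and 1.74-fold with LD-F1_b EVs (0.80 ± 0.18, adjusted p = 0.0147). The difference between the EV groups did not pass the threshold (-0.84 ± 0.17, 95% interval -1.20 to -0.47, adjusted p = 0.0604), although every LD-F1_b library lay below both LD-F1 libraries. By edgeR it passed with no filter on low counts (adjusted p = 0.0015) and without either LD-F1 library. It did not pass by DESeq2 (adjusted p = 0.0569) or in an edgeR fit of only the groups compared (adjusted p = 0.12). Nor did it pass with other scalings, with the replicate block or without any 1 LD-F1_b or PBS library. The value stayed between -0.98 and -0.68 in all the alternatives run.

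Dhx58, the gene of LGP2, had 44.3 and 40.2 CPM with LD-F1 EVs and 20.999 and 23.5 CPM with LD-F1_b EVs, against 15.7 and 14.2 CPM with PBS. The LD-F1 libraries stood well above the rest. Dhx58 was 2.82-fold higher with LD-F1 EVs than with PBS (1.498 ± 0.13, adjusted p = 8.42e-06) and 1.49-fold higher with LD-F1_b EVs (0.57 ± 0.13, adjusted p = 0.0171). LD-F1_b EVs gave lower Dhx58 than LD-F1 EVs (-0.92 ± 0.13, adjusted p = 0.0067). That call was lost without either LD-F1_b library, with log2 differences of -0.84 without replicate 1 and -1.01 without replicate 2. An antisense entry, Dhx58os, overlaps the Dhx58 entry (chromosome 11, 106674820 to 106684229, minus strand) with 0 to 5 counts in a library.

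The 3 helicase genes had log2 fold changes of 1.49 to 1.63 with LD-F1 EVs. Several of the smaller changes depended on single libraries. Against PBS, the rise of Ifih1 and of Dhx58 with LD-F1_b EVs lost its call when any single LD-F1_b or PBS library was left out (adjusted p = 0.0731 to 0.148 for Ifih1 and 0.0772 to 0.208 for Dhx58, by edgeR), and that of Ddx58 lost it without LD-F1_b replicate 1 (adjusted p = 0.0616). The number of the 9 genes called for LD-F1_b EVs against PBS was then 3 without LD-F1_b replicate 1, in place of 6, and 4 without LD-F1_b replicate 2, PBS replicate 1 or PBS replicate 2. The rises of the helicase genes with LD-F1 EVs were called in every alternative run.

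Mavs, the adaptor through which RIG-I and MDA5 signal, lay on the other side of PBS from the sensors; its entry is on chromosome 2 from 138886815 to 138900723, plus strand. It had 44.4 and 38.1 CPM with LD-F1 EVs and 44.7 and 45.9 CPM with LD-F1_b EVs, against 52.5 and 51.9 CPM with PBS. Both EV groups lay below PBS. With LD-F1 EVs Mavs fell by 0.34 ± 0.11 on the log2 scale, and this call was at the threshold (adjusted p = 0.0467). It was lost by DESeq2 (adjusted p = 0.0838), in a fit of only the groups compared (adjusted p = 0.0908) and without any 1 library other than LD-F1 replicate 1 (adjusted p = 0.0883 to 0.252). With LD-F1_b EVs the value was -0.20 ± 0.11 (95% interval -0.44 to 0.03, adjusted p = 0.28), and between the EV groups it was 0.13 ± 0.11 (adjusted p = 0.821).

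The sensors could be set against their adaptor within each library by level per length, as RPKM (CPM per kilobase of the deposited gene length). The summed RPKM of Ddx58, Ifih1 and Dhx58 was 2.08 and 2.10 times that of Mavs in the LD-F1 libraries and 1.11 and 1.04 times in the LD-F1_b libraries, against 0.594 and 0.566 times in the PBS libraries. The 3 groups did not overlap. The mean ratio was 2.09 ± 0.0143 with LD-F1 EVs and 1.08 ± 0.0483 with LD-F1_b EVs, against 0.580 ± 0.0194 with PBS (SD, n = 2 each). No test was made of these ratios. Their size rests on the gene length used. The deposited lengths of Ddx58, Ifih1 and Dhx58 are 6784, 8165 and 3272 bases. Their longest coding transcripts in GENCODE M21 have 3874, 5470 and 2412 bases. For Mavs the 2 lengths are 3345 and 3057 bases, so the transcript lengths would give a higher ratio in each group.

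**Figure D2:**
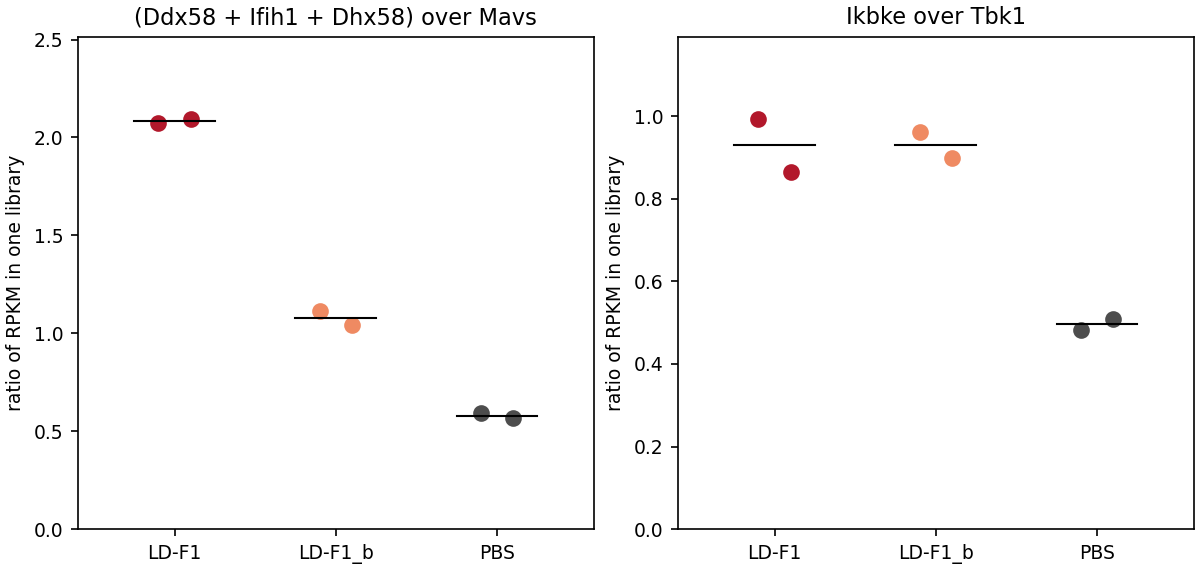
Ratios of levels per length (RPKM, with the deposited gene lengths, on which their size rests) in each library, by group, with group means as bars and axes from 0. The summed RIG-I-like receptor transcripts over Mavs (left) separate all 3 groups, at about 2.09, 1.08 and 0.580, while Ikbke over Tbk1 (right) is 0.929 with LD-F1 EVs, 0.930 with LD-F1_b EVs and 0.496 with PBS.

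Ifi204 and Ifi205, interferon-inducible genes of the AIM2-like family, had the largest log2 fold changes of the 8 tested genes with LD-F1 EVs against PBS. With LD-F1_b EVs Ifi205 came first and Ikbke stood above Ifi204. Ifi204, the mouse gene often set beside human IFI16 as a DNA sensor, had 67.2 and 65.1 CPM with LD-F1 EVs and 32.6 and 32.0 CPM with LD-F1_b EVs, against 18.0 and 17.6 CPM with PBS. The replicates differed by 0.03 to 0.04 on the log2 scale, and the 3 groups did not overlap. Ifi204 was 3.71-fold higher with LD-F1 EVs than with PBS (1.89 ± 0.11, adjusted p = 3.58e-07) and 1.81-fold higher with LD-F1_b EVs (0.86 ± 0.11, adjusted p = 0.000415). The LD-F1_b value was 0.488 of the LD-F1 value (-1.03 ± 0.11, adjusted p = 0.0013). That call was lost without either LD-F1_b library, with log2 differences of -1.05 without replicate 1 and -1.02 without replicate 2.

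Ifi205 had the lowest CPM of the 8 in PBS and the largest fold change. It had 14.8 and 22.1 CPM with LD-F1 EVs and 8.14 and 6.84 CPM with LD-F1_b EVs, against 2.15 and 2.14 CPM with PBS. The LD-F1 replicates were 0.58 apart on the log2 scale, the widest gap of any member in any group, and still lay above all other libraries. Ifi205 was 8.57-fold higher with LD-F1 EVs than with PBS (3.10 ± 0.26, adjusted p = 4.85e-06) and 3.48-fold higher with LD-F1_b EVs (1.80 ± 0.27, adjusted p = 0.0011). LD-F1_b EVs gave less than LD-F1 EVs (-1.30 ± 0.22, adjusted p = 0.0230). That call was lost without either LD-F1_b library, with log2 differences of -1.43 without replicate 1 and -1.18 without replicate 2. Over PBS, the rise of Ifi205 stayed between 2.77 and 3.36 on the log2 scale with LD-F1 EVs in all the alternatives run. With LD-F1_b EVs it stayed between 1.67 and 1.92.

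Both genes lie on the minus strand of chromosome 1 in the positions of the table, Ifi204 from 185730024 to 185759522 and Ifi205 from 186068896 to 186105573, which is 309 kb apart. The cluster between them holds close copies, and no source used here says how reads that map to several places were counted, so the values of its genes are uncertain. The entries described next were chosen by position after the values were seen. Ifi203, between them, rose with LD-F1 EVs (1.73 ± 0.22, adjusted p = 0.000137) and with LD-F1_b EVs (0.77 ± 0.22, adjusted p = 0.0461). An unnamed protein-coding entry within the span of Ifi203, MGP_C57BL6NJ_G0017216, rose too (1.80 ± 0.16, adjusted p = 9.67e-06, and 1.02 ± 0.16, adjusted p = 0.0018). AI607873, which the RefSeq table gives as a synonym of Ifi207 and which lies on the other side of Ifi204, was at 0.51 ± 0.17 (adjusted p = 0.069) and 0.23 ± 0.17 (adjusted p = 0.475). Ifi202b had 0 to 12 counts in a library and was not tested. Over all genes, 11.4% rose with LD-F1 EVs and 6.44% rose with LD-F1_b EVs, which are the shares to set beside the family counts that follow. Of the 3 tested genes listed for this family (Aim2, Ifi203 and Ifi207), 1 rose with each kind of EV and 0 fell, with medians of 0.51 and 0.23. With LD-F1 EVs 2 rose by DESeq2, with no filter on low counts and with the replicate block. The only call for LD-F1_b EVs, that of Ifi203, was lost without any 1 LD-F1_b or PBS library.

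Zbp1, which senses Z-form nucleic acids and can start necroptosis, had 1 count in all 6 libraries together. That count was in LD-F1 replicate 1, at 0.0749 CPM, below the floor of 3 counts (0.225 CPM in that library), and no fold change was taken. Its entry, on chromosome 2 from 184627896 to 184644329, overlaps no other. A count this low does not show that the gene is silent, since genes that macrophages are known to express also lay near 0: Itgam had 7 counts in all, Ddx60 had 1 and Trex1 had 0. Whether Zbp1 was missed in the counting was not tested.

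Of 7 tested partners of Zbp1 in cell death, 2 rose with LD-F1 EVs and 0 fell, with a median log2 fold change of 0.01 against 0.01 over all genes, of which 21.2% were called and 11.4% rose. They were Irf1, a transcription factor that induces Zbp1 (0.96 ± 0.17, adjusted p = 0.0020), and Mlkl, the executioner of necroptosis (0.46 ± 0.11, adjusted p = 0.0099), of which 1 was called without either PBS library. Without LD-F1 replicate 2, 3 rose and 1 fell. The kinase gene Ripk3 was at -0.11 ± 0.14 (adjusted p = 0.618). The share of all genes called with LD-F1_b EVs was 11%, of which 6.44% rose. With LD-F1_b EVs 0 of the 7 were called by edgeR and 0 by DESeq2, with 1 at an unadjusted p under 0.05, and 1 rose without either LD-F1 library.

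The kinases differed from each other. Ikbke, the gene of the inducible kinase IKKε, had 294 and 262 CPM with LD-F1 EVs and 257 and 239 CPM with LD-F1_b EVs, against 125 and 126 CPM with PBS. Neither EV group overlapped with PBS, and the EV groups lay close to each other. Ikbke was 2.21-fold higher with LD-F1 EVs (1.15 ± 0.09, adjusted p = 3.3e-06) and 1.98-fold higher with LD-F1_b EVs (0.98 ± 0.09, adjusted p = 2.81e-05). The difference between the EV groups was not called (-0.16 ± 0.09, 95% interval -0.36 to 0.03, adjusted p = 0.649). The antisense entries Gm28913 and Gm28914 lie within its span (chromosome 1, 139684685 to 139713193, minus strand) with 9 to 78 counts in a library, against 1915 to 3917 for Ikbke.

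Tbk1, the constitutive relative of Ikbke (chromosome 10, 129077281 to 129116197, minus strand), had 99.3 and 101.9 CPM with LD-F1 EVs and 90.0 and 89.4 CPM with LD-F1_b EVs, against 87.0 and 83.5 CPM with PBS. The groups did not overlap but lay close together. The log2 fold change was 0.24 ± 0.09 with LD-F1 EVs (95% interval 0.05 to 0.43, adjusted p = 0.0772) and 0.07 ± 0.09 with LD-F1_b EVs (-0.12 to 0.27, adjusted p = 0.67), and neither was called. Without LD-F1 replicate 1 the value for LD-F1 EVs was 0.26 (adjusted p = 0.0202). Between the EV groups the value was -0.17 ± 0.09 (95% interval -0.36 to 0.03, adjusted p = 0.642).

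The balance of the kinases stood at another value in EV-treated cells. The RPKM ratio of Ikbke to Tbk1 was 0.994 and 0.865 in the LD-F1 libraries and 0.961 and 0.899 in the LD-F1_b libraries, against 0.483 and 0.508 in the PBS libraries. The EV groups overlapped each other and lay above PBS. The size of the ratio rests on the gene length used. The deposited length of Ikbke is 9018 bases, while its longest coding transcript in GENCODE M21 has 3251 bases; with these transcript lengths, an alternative chosen after seeing the data, the mean ratio was 2.57 with LD-F1 EVs, 2.57 with LD-F1_b EVs and 1.37 with PBS.

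**Figure D3:**
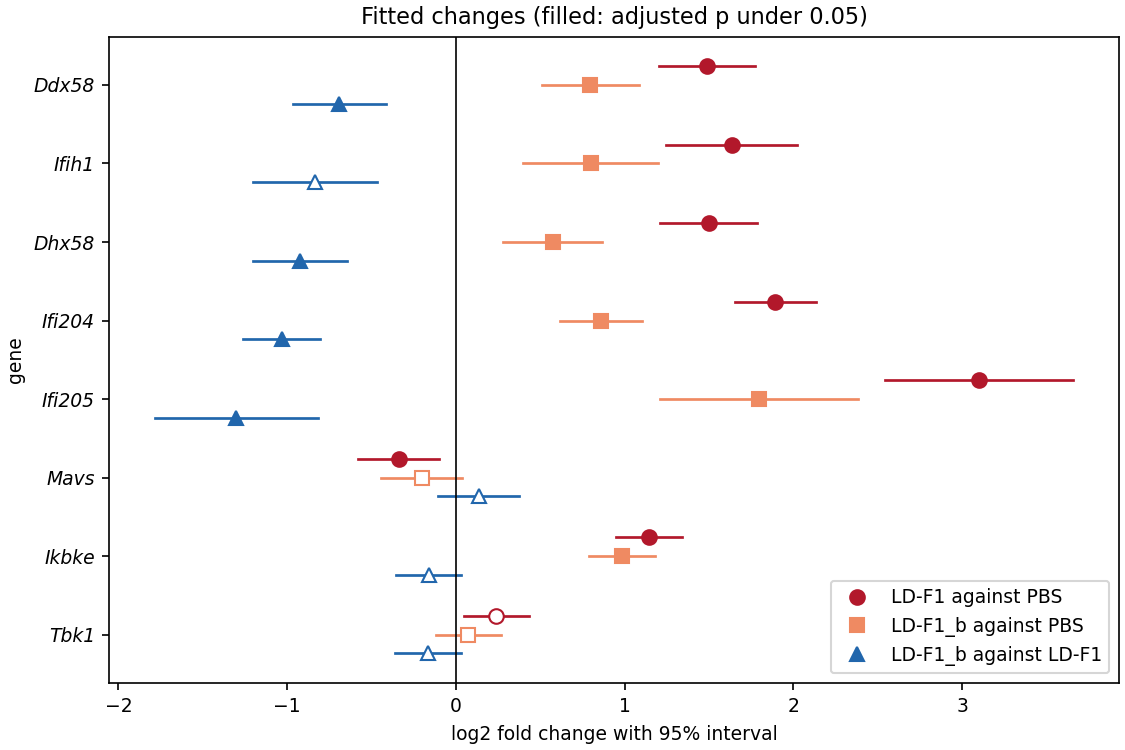
Fitted log2 fold changes (horizontal axis) of the 8 tested genes with 95% intervals, for LD-F1 EVs against PBS, LD-F1_b EVs against PBS and LD-F1_b against LD-F1 EVs, filled where the adjusted p is under 0.05. The sensors lie at 1.49 to 3.10, 0.57 to 1.80 and -1.30 to -0.69 in these comparisons, while Ikbke is near 1 against PBS and near 0 between the EV groups.

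The direct comparison of EV groups separated the sensors from the kinases and the adaptor. Ddx58, Dhx58, Ifi204 and Ifi205 were lower with LD-F1_b than with LD-F1 EVs, Ifih1 had a change of like size that did not pass, and Mavs, Tbk1 and Ikbke were within 0.17 of 0 on the log2 scale with no call. Leaving out either LD-F1_b library gave 0 calls among the 9 genes by edgeR, with 5 at an unadjusted p under 0.05 each time, while leaving out either LD-F1 library gave 5 calls and either PBS library 3. The whole table had 1 call without LD-F1_b replicate 1 and 0 without LD-F1_b replicate 2 (by edgeR, 782 genes at an unadjusted p under 0.05). DESeq2 called 4 of the 9 genes on all libraries. The log2 differences stayed between -1.57 and -0.56 for these 5 sensors in every alternative run.

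By level per length, the order in PBS was Tbk1 (28.1 ± 0.819 RPKM, SD, n = 2), Mavs (15.6 ± 0.117), Ikbke (13.9 ± 0.101), Ifi204 (5.69 ± 0.0836), Dhx58 (4.57 ± 0.308), Ddx58 (3.65 ± 0.0640), Ifih1 (0.832 ± 0.00152) and Ifi205 (0.552 ± 0.00207), with Zbp1 last, and no neighbours in that order overlapped. With LD-F1 EVs Tbk1 (33.2 ± 0.608) led over Ikbke (30.8 ± 2.45) and Ifi204 (21.1 ± 0.454), followed by Dhx58 (12.9 ± 0.889), Mavs (12.3 ± 1.34), Ddx58 (10.2 ± 1.33), Ifi205 (4.74 ± 1.34) and Ifih1 (2.59 ± 0.393). There, Dhx58 overlapped with Mavs, and Ifi204 stood above Mavs where it stood below it in PBS. With LD-F1_b EVs the order was Tbk1 (29.6 ± 0.133), Ikbke (27.5 ± 1.41), Mavs (13.5 ± 0.247), Ifi204 (10.3 ± 0.140), Dhx58 (6.80 ± 0.539), Ddx58 (6.34 ± 0.794), Ifi205 (1.92 ± 0.235) and Ifih1 (1.45 ± 0.133), and Dhx58 overlapped with Ddx58. With GENCODE M21 transcript lengths Ikbke came first in all 3 groups, at 85.5, 76.4 and 38.6 RPKM, and Ifih1 was the lowest of the 8.

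The genes most like each member across the 6 libraries were taken by Pearson's r of log2 CPM among 9059 named genes with a mean of at least 5 CPM. The 6 libraries form 3 groups and many genes follow them, so these values are a description. Ifi204 was most like Tapbp (r = 0.998), Irf7 (0.997) and Isg15 (0.996), all known as interferon-induced. Ifih1 and Ddx58 shared Parp14, also known as interferon-induced (0.995 each), and Rlim (0.995 each). Ddx58 was nearest to Mthfd1l (0.996), above Parp14, and Alas1 (0.995) stood between Parp14 and Rlim for Ifih1. Dhx58 was nearest to Rhob (0.995), Tap1 (0.994) and Camk2d (0.992), and Ifi205 to Zfand5 (0.9995). Ikbke was nearest to Tmem248 (0.9995), Tbk1 to Rnf11 (0.998) and Mavs to Adcy7 (0.9995).

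Other genes of these routes were described by lists chosen with earlier results of these data known. Of 22 tested RNA sensing regulators, 4 rose and 1 fell with LD-F1 EVs (median log2 fold change 0.06 against 0.01 over all genes). The number called is near the 21.2% called among all genes, so it is no result about this list. Riok3, a kinase known to act on MDA5, rose by 1.05 ± 0.09 (adjusted p = 4.09e-06), Zc3hav1 of the antiviral protein ZAP by 0.48 ± 0.09, the double-stranded RNA editor gene Adar by 0.44 ± 0.11 and Mex3c by 0.42 ± 0.11. Trim65, the ubiquitin ligase for MDA5, fell by 0.49 ± 0.13, while Trim25, a ligase for RIG-I, was at 0.06 ± 0.08 (adjusted p = 0.677). With LD-F1_b EVs 2 rose, Riok3 (0.68 ± 0.08) and Zc3hav1 (0.31 ± 0.09), and 0 fell. In that comparison 11% of all genes were called, 6.44% higher and 4.54% lower, so this number too is no result about the list. Without PBS replicate 1 or 2 the number that rose with LD-F1 EVs was 1 or 2 and 0 fell, and with LD-F1_b EVs it was 1 without any 1 LD-F1_b or PBS library. Without LD-F1 replicates 1 and 2, 3 and 2 fell with LD-F1 EVs. With LD-F1_b EVs, 2 fell without either LD-F1 library. With library totals alone as scaling, 3 rose and 3 fell with LD-F1 EVs.

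Of 17 tested genes of DNA sensing, 1 rose and 3 fell with LD-F1 EVs (median -0.20 against 0.01 over all genes). The number called is again near the 21.2% of all genes, 11.4% higher and 9.87% lower, and is no result about this list. The same holds for the 2 called with LD-F1_b EVs, where 11% of all genes were called, 6.44% higher and 4.54% lower. The gene of the DNA sensor cGAS (Mb21d1 in the table) had 24.4 and 23.0 CPM with LD-F1 EVs and 25.7 and 25.9 CPM with LD-F1_b EVs, against 38.0 and 33.7 CPM with PBS. Its log2 fold change was -0.60 ± 0.12 with LD-F1 EVs (adjusted p = 0.0041) and -0.47 ± 0.12 with LD-F1_b EVs (adjusted p = 0.0248), and both were called. Prkdc, the DNA-dependent protein kinase, fell too (-0.67 ± 0.13 with LD-F1 EVs and -0.46 ± 0.13 with LD-F1_b EVs), and Mre11a, a DNA end nuclease, fell by 0.41 ± 0.11 with LD-F1 EVs. The helicase gene Ddx41 rose by 0.29 ± 0.09 (adjusted p = 0.046). The inflammasome DNA sensor gene Aim2 was at 0.00 ± 0.10 and 0.01 ± 0.10, with adjusted p = 0.986 and 0.954. Without PBS replicates 1 and 2 the number that fell with LD-F1 EVs was 1 and 2, without LD-F1 replicate 1 it was 7, and with library totals alone 6. The number that rose was 0 by DESeq2 and without any 1 library other than LD-F1 replicate 1. With LD-F1_b EVs 2 fell and none rose, 5 fell without either LD-F1 library, and 0 were called without any 1 LD-F1_b or PBS library.

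Of 15 tested partners and substrates of the kinases, 7 rose and 1 fell with LD-F1 EVs (median 0.30), where 11.4% of all genes rose and 9.87% fell with a median of 0.01. With LD-F1_b EVs 5 rose and 1 fell (median 0.24), where 6.44% of all genes rose and 4.54% fell with a median of 0.01. Irf7, the interferon regulatory factor that interferon itself induces, had 99.1 and 90.5 CPM with LD-F1 EVs and 50.5 and 51.8 CPM with LD-F1_b EVs, against 26.9 and 26.6 CPM with PBS. Sqstm1, an autophagy receptor that TBK1 phosphorylates, rose by 1.28 ± 0.08 and 0.77 ± 0.08, and Ticam1, the adaptor TRIF that links Toll-like receptors to TBK1, by 0.98 ± 0.16 and 0.73 ± 0.16. The scaffold gene Tank and the NF-kB subunit gene Rela rose with LD-F1 EVs (0.40 ± 0.09 and 0.30 ± 0.09), and Dab2ip fell (-0.99 ± 0.14). Irf3, the constitutive substrate, was at 0.10 ± 0.13 (adjusted p = 0.641) and 0.15 ± 0.13 (adjusted p = 0.52). Between the EV groups Irf7 and Sqstm1 were lower with LD-F1_b EVs (-0.89 ± 0.10 and -0.52 ± 0.08), with 0 called without either LD-F1_b library and 1 without either PBS library. Without PBS replicate 1, 4 rose with LD-F1 EVs; with LD-F1_b EVs 3 rose and 0 fell without either LD-F1_b library or PBS replicate 1, and 8 rose without LD-F1 replicate 2.

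Of 9 tested genes of interferon signalling, 6 rose and 0 fell with LD-F1 EVs (median 0.78), where 11.4% of all genes rose with a median of 0.01. With LD-F1_b EVs 3 rose and 0 fell (median 0.45), where 6.44% of all genes rose with a median of 0.01. Usp18, the negative regulator of the interferon receptor, rose by 1.83 ± 0.13, the transcription factor genes Stat2 by 0.86 ± 0.17 and Irf9 by 0.78 ± 0.12, and the kinase gene Tyk2 by 0.43 ± 0.13; Socs1, also called, averaged 1.26 CPM. The receptor gene Ifnar1 was at 0.07 ± 0.09 (adjusted p = 0.65). Usp18 was lower with LD-F1_b than with LD-F1 EVs (-1.11 ± 0.12, adjusted p = 0.0017), a call lost without either LD-F1_b library. The 16 interferon ligand genes in the table, among them Ifnb1 and Ifng, had 0 counts in each library, which allows up to 0.189 to 0.225 CPM if their reads were counted. As for Zbp1, whether they were missed in the counting was not tested. With LD-F1_b EVs the number that rose was 0 without either LD-F1_b library or PBS replicate 2, 1 without PBS replicate 1 and 5 without either LD-F1 library; with LD-F1 EVs it was 4 without either PBS library. Between the EV groups edgeR called 0 of the RNA sensing regulators, AIM2-like genes, DNA sensing genes and Zbp1 partners, where 3, 1, 0 and 3 had an unadjusted p under 0.05 and DESeq2 called 1, 1, 0 and 0.

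**Figure D4:**
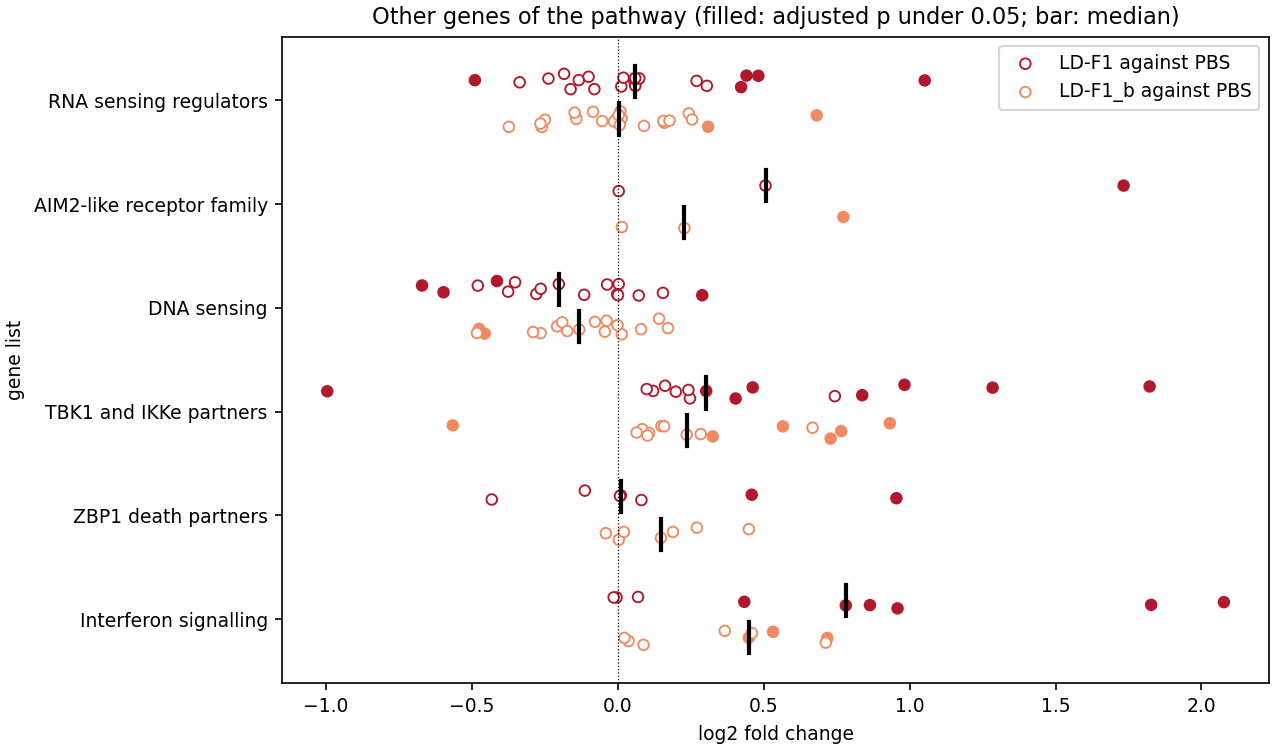
Log2 fold changes (horizontal axis) of the tested genes of 6 lists of related genes for LD-F1 EVs against PBS and LD-F1_b EVs against PBS, each point a gene and each bar a list's median, filled where the adjusted p is under 0.05. Most RNA sensing regulators lie near 0, and the DNA sensing genes have medians of -0.20 with LD-F1 EVs and -0.13 with LD-F1_b EVs. Genes of interferon signalling and partners of the kinases lie mainly to the right.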

How the data were processed

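RNA of 6 macrophage libraries was measured by RNA sequencing. The authors deposited 1 table of raw counts of reads per gene, with a gene length column used here only for RPKM. Per the submitters' processing notes the tools were featureCounts 1.5.0-p3, HISAT2 2.0.5, fastp and StringTie 1.3.3b and the build GRCm39; identifiers and positions are those of a C57BL/6NJ annotation, so no position was set against GRCm38. No source used here gives the strand or multi-mapping setting. All per-sample columns were matched to titles (0 left over), and 0 entries lacked a gene.

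Counts were tested with edgeR 4.0.16 in R 4.3.3: filterByExpr, TMM, 1 mean per group over all 6 libraries (3 residual degrees of freedom), robust quasi-likelihood F tests, Benjamini-Hochberg adjustment over 12740 genes, threshold 0.05. SE were computed back from F. The procedure was tested on simulated data with the same spread in every group and no replicate difference by gene length, unlike the libraries here. Alternatives were DESeq2 1.42.0, other scalings, no filter, only the groups compared, a replicate block and each library left out; where that leaves a group with 1 library, it is assumed to vary like the others. Log2 CPM for likeness used a prior count of 2. List genes named were the called ones with the 3 highest and 3 lowest changes with LD-F1 EVs at a mean of at least 5 CPM; others named (Trim25, Ripk3, Aim2, Irf3, Socs1 and Ifnar1) were chosen after their values were seen. Members and lists were chosen with earlier results of these data known. List symbols absent from the table were matched through RefSeq synonyms. The values of 1 called gene of the interferon signalling list are not reported here; it is kept in the counts.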

Additional observations from a re-analysis of the deposited data

How the results depend on the processing

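The direction of each tested gene of the 9 was the same in every alternative run, in all 3 comparisons. The number of the 9 genes called ranged over the leave-one-out fits from 6 to 8 for LD-F1 EVs against PBS, from 3 to 6 for LD-F1_b EVs against PBS and from 0 to 5 for LD-F1_b against LD-F1 EVs; other alternatives gave 6 or 7, 6, and 3 to 5. Over all genes, calls ranged over the leave-one-out fits from 1213 to 4497, from 401 to 3142 and from 0 to 1152 in the same order (2707, 1398 and 54 on all libraries; without LD-F1_b replicate 2, the 0 calls are edgeR's, with 782 genes at an unadjusted p under 0.05). A fit of only the groups compared called 3098 for LD-F1_b EVs against PBS and 33 between the EV groups, where DESeq2 called 97 and the fit with no filter 185. With library totals alone, 33.6% and 41.7% of calls against PBS were higher in place of 53.5% and 58.7%, with the median of all genes at -0.10 and -0.07 on the log2 scale. The cause of these differences was not tested. With the replicate block 6, 6 and 4 of the 9 genes were called, and Mavs lost its call (adjusted p = 0.0531); the labels give no pairing, and replicate differences correlated between groups at -0.023 to 0.084. Zbp1 and the interferon ligand genes lie under the floor of 3 counts, so no change in them could be read from these counts. Whether depth or reads missed in the counting set this limit was not tested.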
